A study of Mus musculus with 308 samples.

Results

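Drug efflux transporters of the ATP-binding cassette (ABC) superfamily, 8 in number, were followed across 7 mouse tissues: the multidrug resistance proteins Abcc1, Abcc2, Abcc3, Abcc4 and Abcc5, the P-glycoproteins Abcb1a and Abcb1b, and the breast cancer resistance protein Abcg2. They were represented on the array by the probe sets whose only gene symbol in the probe annotation was one of these 8 genes. There were 17 such probe sets, out of 28898 probe sets with 1 symbol that stand for 17097 genes. Abcc5 had 7 probe sets, Abcc1, Abcb1a and Abcb1b had 2 each, and the other 4 genes had 1 each. Where a gene had several, they are numbered from the highest to the lowest mean signal, and the first is meant unless another is named. The first probe sets were 1452233_PM_at for Abcc1, 1450109_PM_s_at for Abcc2, 1428988_PM_at for Abcc3, 1443870_PM_at for Abcc4, 1435684_PM_at for Abcc5, 1419759_PM_at for Abcb1a, 1418872_PM_at for Abcb1b and 1422906_PM_at for Abcg2. Abcb1a and Abcb1b are close paralogs, so signal shared between their probe sets cannot be told apart.

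The study gave C57BL/6 mice fumarate esters once daily for 10 days and measured mRNA 12 h after the last dose, on 308 Affymetrix HT MG-430 PM arrays. In every tissue there were 6 groups. The DMF100 group received dimethyl fumarate (DMF) at 100 mg/kg, and the DMF179.2 group received DMF at 179.2 mg/kg. The MEF79.2 group received monoethyl fumarate (MEF) at 79.2 mg/kg, as mixed salts with calcium, magnesium and zinc. The combination group received DMF at 100 mg/kg together with MEF salts at 79.2 mg/kg, which matches the DMF179.2 group in total mass. A group labelled Nav is not explained in the sources used here. The vehicle group received 0.8% hydroxypropyl methylcellulose, which is also the vehicle of the treated groups. Jejunum, kidney, mesenteric lymph node, inguinal lymph node, spleen, brain and whole blood were sampled, with 5 to 8 arrays per group and 38 to 47 per tissue. The design text does not name kidney, whose arrays were assigned from their own labels, and the age and sex of the mice are not given in the sources used here. The design text gives 6 to 10 mice per dose group, but no label ties an array to an animal, so the tests measure the spread between these samples, which may in part be technical.

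ABC efflux transporters use ATP to move drugs, conjugates and signalling molecules out of cells. In the gut and the kidney tubule, Abcc2, Abcg2 and Abcb1a face the lumen, while Abcc3 faces the blood in the gut. Abcc4 faces the lumen of the kidney tubule. Abcc1 to Abcc4 carry glucuronide, sulphate or glutathione conjugates, and several of them are known targets of NRF2, the transcription factor of the antioxidant response, whose inhibitor KEAP1 is modified by fumarate esters.

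The promoters of Abcc2 and Abcc4 are shown because these were the genes that rose in kidney with all 4 treatments. Each window runs from 250 bases before to 50 bases after an annotated start, in RefSeq's annotation of build GRCm38.p6, and is written in the direction of the gene. Capitals mark matches, on either strand, to the core of the antioxidant response element (TGACNNNGC) or of the xenobiotic response element (GCGTG). The Abcc2 window lies at chr19:43782058-43782357 on the plus strand and the Abcc4 window at chr14:118706170-118706469 on the minus strand.
Abcc2: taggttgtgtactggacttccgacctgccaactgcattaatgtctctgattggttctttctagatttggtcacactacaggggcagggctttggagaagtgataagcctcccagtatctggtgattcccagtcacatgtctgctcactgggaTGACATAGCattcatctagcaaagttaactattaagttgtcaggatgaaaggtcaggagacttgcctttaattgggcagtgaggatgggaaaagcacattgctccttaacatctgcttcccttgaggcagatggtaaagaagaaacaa
Abcc4: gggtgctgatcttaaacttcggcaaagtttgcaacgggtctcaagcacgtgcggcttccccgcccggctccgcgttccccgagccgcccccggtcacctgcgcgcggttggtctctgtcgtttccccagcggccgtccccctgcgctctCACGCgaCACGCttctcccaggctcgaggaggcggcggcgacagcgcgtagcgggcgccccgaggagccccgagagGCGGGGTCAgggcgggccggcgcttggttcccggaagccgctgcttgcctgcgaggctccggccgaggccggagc
In the Abcc2 window, TGACATAGC begins at position -98 from the start. In the Abcc4 window, GCGGGGTCA, a match on the opposite strand, begins at -25, and the xenobiotic core, read on the opposite strand as CACGC, begins at -101 and -94. None of these matches overlap each other. A second annotated start of Abcc4 had the antioxidant core TGACTCTGC at -23. Of 32851 promoter windows of the same length, 12.4% held the antioxidant core and 32.4% held the xenobiotic core, and a match is a description of the letters only. Promoter windows were found for 6 of the 8 genes. The window of Abcb1a, which was not called higher in kidney, also held the antioxidant core, on the opposite strand at 26. An annotated start of Abcg2 had the xenobiotic core at 19, and the windows of Abcb1b and Abcc5 held neither core.

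The 8 genes differed in the tissues where they were detected. Values are the authors' deposited log2 expression values, and because the tissues were normalized apart, levels in different tissues are set side by side by their percentile among all probe sets of that tissue and were not tested. Abcc2 was found in vehicle samples at 10.61 ± 0.40 in jejunum, the 93.0th percentile, and at 10.36 ± 0.16 in kidney, the 92.4th percentile (SD, n = 8 and 7). In the other 5 tissues it sat between the 9.0th and 21.6th percentile, and no vehicle array rose above the tissue's lowest value. Abcc2 was therefore tested in jejunum and kidney only.

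Abcg2 was near the top of kidney (99.0th percentile) and jejunum (97.5th), and between the 62.1st in blood and the 89.3rd in inguinal node elsewhere. Abcc3 lay at the 86.9th percentile in jejunum, 85.4th in kidney and 81.2nd in spleen, and between the 40.1st in brain and the 59.6th in mesenteric node elsewhere. Abcc4 stood at the 91.5th percentile in kidney, against 51.0 to 75.2 in the other tissues. Abcb1a was at the 95.5th percentile in jejunum and the 78.7th in brain, where it is known as a pump of the blood-brain barrier. It was between 63.1 and 71.1 in the remaining tissues. Its paralog Abcb1b was at the 28.6th percentile in jejunum and the 72.8th in kidney. Abcc5, which exports cyclic nucleotides, was at the 94.7th percentile in brain and between 78.0 and 93.5 elsewhere. Abcc1, a broadly expressed exporter of glutathione conjugates such as leukotriene C4, ranged from the 64.4th in jejunum to the 86.0th in inguinal node.

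The tissue labels were checked against markers above the tissue's median: all 6 enterocyte markers in jejunum, all 5 neuron markers in brain, all 5 B cell and all 5 T cell markers in both nodes, spleen and blood.

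A probe set was tested in a tissue when 5 or more arrays there placed it above the 50th percentile of all values. This left 11 of the 17 member probe sets in jejunum, brain and blood, 14 in kidney, and 13 in each lymph node and in spleen. Probe sets 6 and 7 of Abcc5 and probe set 2 of Abcb1b were tested nowhere. Without the filter, none of the 132 comparisons of a treatment with vehicle that it removed was called, and their largest size was 0.32 on the log2 scale. A difference was called at a limma p-value, adjusted over all probe sets tested in that tissue and comparison, below 0.05. Differences are log2 values, treatment minus vehicle, ± standard error from limma.

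**Figure D1:**
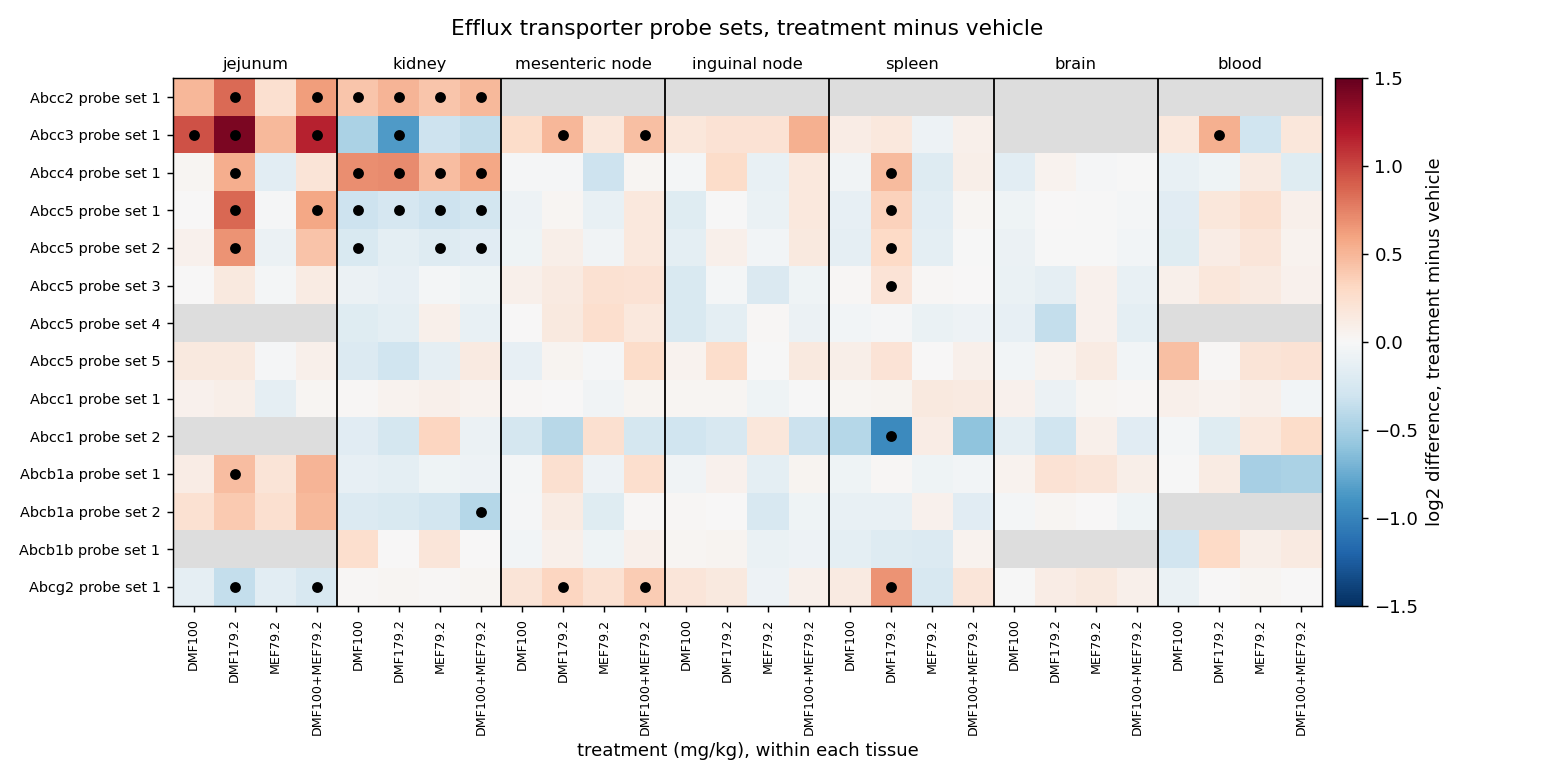
Log2 difference of each treatment from vehicle for the 14 efflux transporter probe sets tested in at least 1 tissue (rows) by tissue and treatment (columns, doses in mg/kg). Red is higher and blue is lower with treatment, a dot marks a call, and grey marks a probe set not tested in that tissue: most dots are in jejunum and kidney, with 12 and 17 calls of 44 and 56 tests. Of all tested probe sets, the share called per treatment was 0.0596% to 28.5% in jejunum and 7.31% to 28.8% in kidney.

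Over the 4 treatments, members were called in 12 of 44 tests in jejunum, 17 of 56 in kidney, 4 of 52 in mesenteric node, 6 of 52 in spleen, 1 of 44 in blood, and in none of 52 in inguinal node and none of 44 in brain. The share of all tested probe sets called ranged from 0% to 28.8% over these comparisons, and is given beside each count of members. The heat map of differences from vehicle shows the same gene moving in different directions in different tissues. Abcc3 had 6 calls upwards and 1 downwards, Abcc5 probe set 1 had 3 upwards and 4 downwards, and Abcg2 had 3 upwards and 2 downwards. Abcc2 and Abcc4 had 6 calls each, all upwards. Abcc1 probe set 1 and Abcb1b, tested 28 and 20 times, had no call.

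In jejunum, DMF179.2 raised Abcc3, Abcc2, Abcc4, Abcc5 and Abcb1a and lowered Abcg2, with 6 of 11 member probe sets called higher and 1 lower. The share of all tested probe sets called in that comparison was 28.5%, so calls were frequent there. With DMF100 only Abcc3 rose (1 of 11 probe sets, against 0.906% of all). With the combination Abcc2, Abcc3 and Abcc5 rose and Abcg2 fell (4 of 11 called, against 3.59% of all). With MEF79.2 limma called no member, against 0.0596% of all, and 2 member probe sets had an unadjusted p below 0.05. The median difference of the 11 probe sets was 0.07 for DMF100, 0.46 for DMF179.2, -0.02 for MEF79.2 and 0.43 for the combination, while the median over all tested probe sets was between -0.01 and 0.01.

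Abcc3, which moves glucuronides and bile acids from the enterocyte towards the blood, had the largest called differences of the 11 probe sets. Its lowest, median and highest log2 values were 10.05, 10.35 and 10.52 with DMF100, 10.54, 10.82 and 11.07 with DMF179.2, and 10.27, 10.49 and 10.82 with the combination, against 9.02, 9.31 and 9.72 with vehicle. Every array of these 3 groups lay above every vehicle array. The MEF79.2 arrays ran from 9.67 over a median of 9.86 to 10.08, and only their lower end met the vehicle range. The difference from vehicle was 0.96 ± 0.13 with DMF100 (1.94-fold, adjusted p = 4.8e-06) and 1.41 ± 0.12 with DMF179.2 (2.65-fold, adjusted p = 4.43e-11). It was 1.16 ± 0.12 with the combination (2.23-fold, adjusted p = 6.68e-09). MEF79.2 differed from vehicle by 0.48 ± 0.12, which did not pass (adjusted p = 0.158, 95% interval 0.23 to 0.73).

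Abcc2, which exports conjugates and bilirubin glucuronides into the gut lumen, ranged from 11.22 over a median of 11.51 to 11.61 with DMF179.2, against 9.90, 10.66 and 11.12 with vehicle. The lowest DMF179.2 array was above the highest vehicle array. The difference was 0.85 ± 0.13 (1.80-fold, adjusted p = 1.12e-05). With the combination the lowest, median and highest values were 11.01, 11.22 and 11.43. The combination thus overlapped vehicle, and its difference was 0.62 ± 0.12 (1.54-fold, adjusted p = 0.0025). With DMF100 Abcc2 differed by 0.50 ± 0.13 (adjusted p = 0.0577) and with MEF79.2 by 0.24 ± 0.13 (adjusted p = 0.473), neither of which passed.

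**Figure D2:**
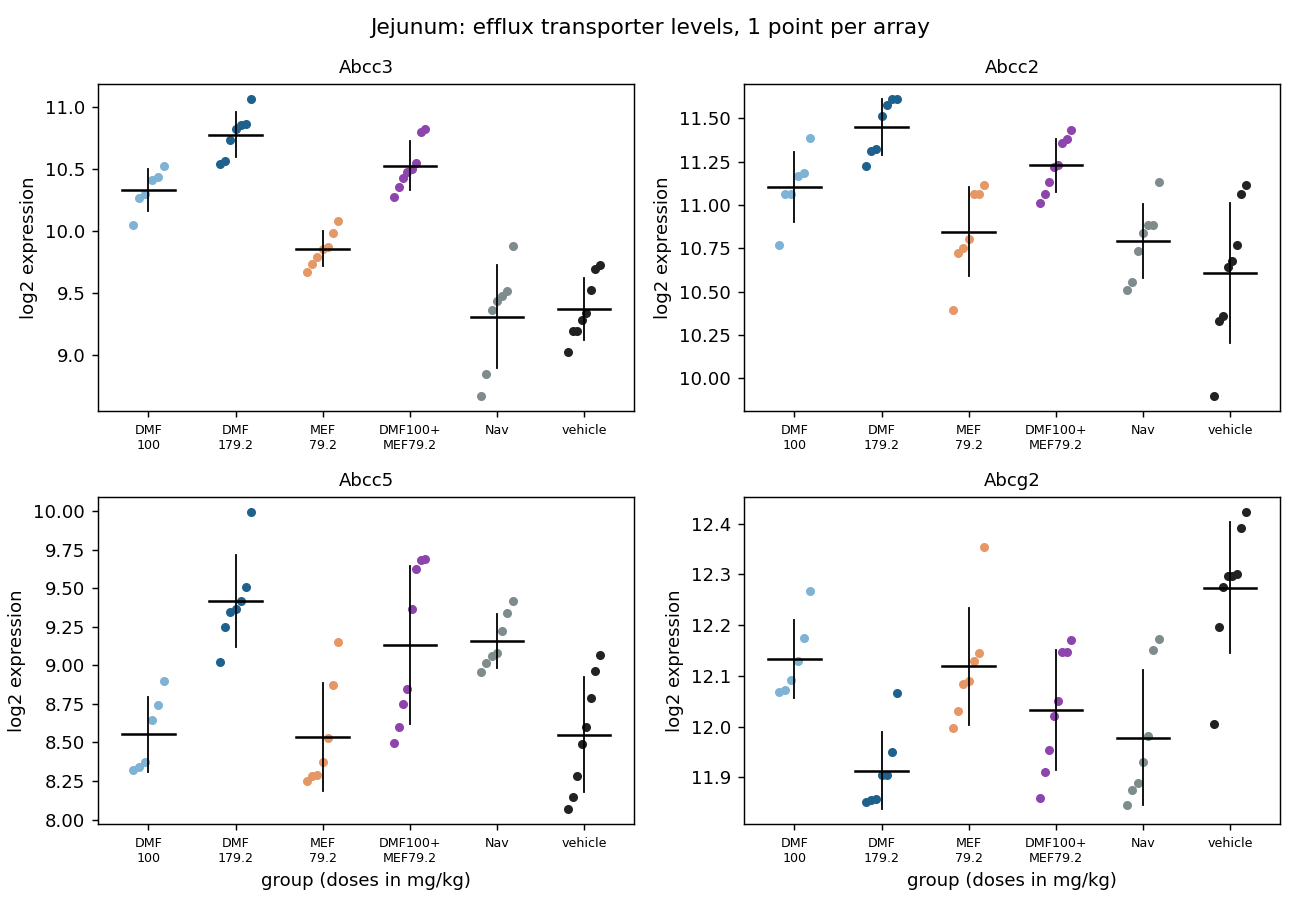
Log2 expression of Abcc3, Abcc2, Abcc5 (probe set 1) and Abcg2 in jejunum, 1 point per array, for the 4 treatments, Nav and vehicle (6 to 8 arrays a group). Horizontal bars are means and vertical lines are 1 SD: the DMF179.2 arrays are the highest group for Abcc3 and the lowest for Abcg2.

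Abcc4, which carries cyclic nucleotides, urate and drug conjugates, was close to the middle of the jejunum's range and rose with DMF179.2 only. Its lowest, median and highest values were 5.76, 6.13 and 6.70 with DMF179.2, against 5.53, 5.73 and 5.91 with vehicle, and the groups overlapped. The difference was 0.55 ± 0.14 (1.46-fold, adjusted p = 0.00336).

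Abcc5 probe set 1 ranged from 9.02 over 9.36 to 10.00 with DMF179.2, and from 8.50 over 9.10 to 9.69 with the combination, against 8.07, 8.55 and 9.07 with vehicle. The DMF179.2 arrays met the vehicle range only at its upper end. The difference was 0.86 ± 0.18 with DMF179.2 (1.82-fold, adjusted p = 0.000516) and 0.58 ± 0.17 with the combination (1.496-fold, adjusted p = 0.047). Probe set 2, designed on the same source sequence and so not independent, rose by 0.68 ± 0.15 with DMF179.2 (adjusted p = 0.00137). Probe sets 3 and 5, near the filter limit in jejunum, differed by 0.15 each and were not called. Probe set 5 was designed on the same source sequence as probe sets 1 and 2.

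For Abcb1a, the main P-glycoprotein of the mouse intestine, probe set 1 ranged from 11.51 over 11.56 to 12.14 with DMF179.2, against 10.50, 11.23 and 12.02 with vehicle. The DMF179.2 arrays overlapped the upper part of a wide vehicle range. The difference was 0.46 ± 0.17 (1.38-fold, adjusted p = 0.035), and probe set 2 differed by 0.40 ± 0.19 (adjusted p = 0.106). The call of probe set 1 was also lost without the filter on low values and with only these 2 groups in the model (adjusted p = 0.0856 in the last). With the combination the probe sets differed by 0.51 ± 0.16 and 0.49 ± 0.18, with adjusted p of 0.0675 and 0.113.

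Abcg2, which pumps urate and sulphate conjugates into the lumen, was the member that fell in jejunum. Its lowest, median and highest values were 11.85, 11.91 and 12.07 with DMF179.2 and 11.86, 12.04 and 12.17 with the combination, against 12.00, 12.30 and 12.42 with vehicle. Of the 8 vehicle arrays 1, at 12.00, overlapped the DMF179.2 group. The difference was -0.36 ± 0.06 with DMF179.2 (1.28-fold lower, adjusted p = 4.71e-05) and -0.24 ± 0.06 with the combination (1.18-fold lower, adjusted p = 0.0157). DMF100 and MEF79.2 differed by -0.14 ± 0.06 and -0.15 ± 0.06 and did not pass (adjusted p = 0.427 and 0.289). Abcc1 differed by 0.08 ± 0.08 with DMF179.2 (adjusted p = 0.432).

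Other measures differed between the jejunum groups. All 6 measured enterocyte markers were detected, and their mean was 13.66 with DMF179.2 and 13.59 with vehicle. The mean of 3 ileal markers (Fabp6, Fgf15 and Slc10a2) ranged from 3.32 over 4.84 to 10.59 with DMF179.2, against 6.67, 9.33 and 10.74 with vehicle, and 2 of the 3 fell. The mean of 5 B cell markers was 6.39 ± 1.18 with DMF100, 4.84 ± 1.62 with DMF179.2 and 6.72 ± 1.14 with the combination, against 4.60 ± 1.15 with vehicle (SD), and none of the 5 was called. Of 4 smooth muscle markers 1 fell with DMF179.2, and their mean was 11.20 ± 0.30, against 11.59 ± 0.25 with vehicle. The part of these markers in the results was not tested. With the mean of the ileal markers as a covariate, chosen after seeing the data, Abcc3 with DMF179.2 differed by 1.26 and Abcc2 by 0.65, both still called. The combination calls of Abcc5 and Abcg2 were lost under it, at 0.55 and -0.205 (adjusted p = 0.0914 and 0.0517), as they were with only the 2 groups in the model, and that of Abcc5 also without the filter on low values. The mean of the hybridisation controls was 11.60 ± 0.07 with DMF179.2 and between 11.57 and 11.69 in the other groups, against 11.77 ± 0.03 with vehicle. The control mean of every DMF100, DMF179.2 and combination array lay below the lowest vehicle array, at 11.72. This signal therefore cannot be told apart from these treatments, and calls kept or lost under it are a description. With that signal as a covariate 6 of the 12 jejunum calls were left. Abcb1a with DMF179.2 then differed by 0.04 (adjusted p = 0.93), while Abcc3, Abcc2, Abcc5 probe set 1 and Abcg2 with DMF179.2 were still called. Also lost with DMF179.2 were Abcc4, at 0.47 (adjusted p = 0.136), and Abcc5 probe set 2, at 0.64 (adjusted p = 0.0668). With the combination Abcc2 was lost at 0.67 (adjusted p = 0.173), Abcc5 at 0.51 (adjusted p = 0.476) and Abcg2 at -0.22 (adjusted p = 0.369).

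In kidney, Abcc2 and Abcc4 rose with every treatment and Abcc5 fell with every treatment. DMF100, DMF179.2 and MEF79.2 each gave 2 member probe sets called higher and 2 lower of 14, against 7.31%, 16.1% and 13.4% of all tested probe sets called. The combination gave 2 higher and 3 lower of 14, against 28.8% of all. The median difference of the 14 probe sets was -0.15 for DMF100, -0.14 for DMF179.2, -0.01 for MEF79.2 and -0.07 for the combination, beside medians between 0.00 and 0.02 over all probe sets.

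Abcc2 lies in the brush border of the proximal tubule. Its lowest, median and highest values were 10.60, 10.75 and 10.90 with DMF100 and 10.73, 10.85 and 11.18 with DMF179.2. They were 10.59, 10.75 and 10.93 with MEF79.2 and 10.73, 10.85 and 11.0004 with the combination, against 10.07, 10.40 and 10.55 with vehicle. No array of a treated group overlapped the vehicle range. The differences were 0.42 ± 0.06 with DMF100, 0.51 ± 0.06 with DMF179.2, 0.42 ± 0.07 with MEF79.2 and 0.49 ± 0.06 with the combination, or 1.33-fold to 1.43-fold (adjusted p between 1.06e-07 and 3.2e-05).

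Abcc4, an organic anion and urate exporter of the same brush border, ranged from 10.57 over 10.83 to 10.98 with DMF100 and from 10.60 over 10.81 to 11.19 with DMF179.2. It ranged from 10.36 over 10.59 to 10.81 with MEF79.2 and from 10.40 over 10.70 to 11.14 with the combination, against 9.89, 10.18 and 10.54 with vehicle. Both DMF groups lay wholly above vehicle, and the MEF79.2 and combination groups overlapped the highest vehicle array. The differences were 0.69 ± 0.11 with DMF100, 0.71 ± 0.11 with DMF179.2, 0.47 ± 0.11 with MEF79.2 and 0.58 ± 0.11 with the combination, with adjusted p of 2.34e-05, 3.83e-06, 0.00329 and 6.74e-05. The largest of these was 1.64-fold.

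**Figure D3:**
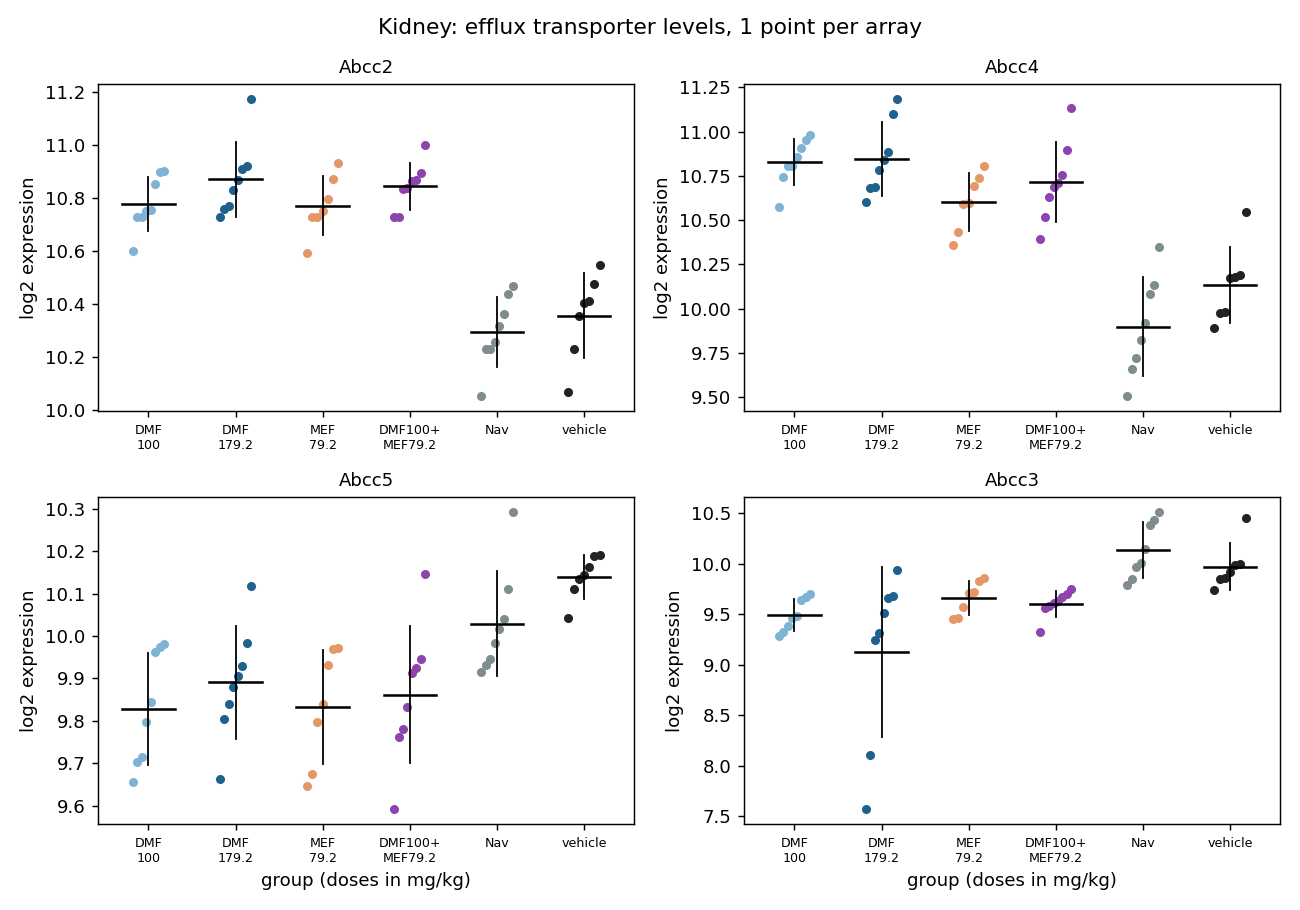
Log2 expression of Abcc2, Abcc4, Abcc5 (probe set 1) and Abcc3 in kidney, 1 point per array, for the 4 treatments, Nav and vehicle (7 or 8 arrays a group). Horizontal bars are means and vertical lines are 1 SD: all treated arrays lie above vehicle for Abcc2, and 2 DMF179.2 arrays, at 8.10 and 7.56, lie below the rest for Abcc3.

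Abcc5 probe set 1 ranged from 9.65 over 9.82 to 9.98 with DMF100, from 9.66 over 9.89 to 10.12 with DMF179.2, from 9.65 over 9.84 to 9.97 with MEF79.2 and from 9.59 over 9.87 to 10.15 with the combination. With vehicle it ranged from 10.04 over 10.14 to 10.19. The DMF100 and MEF79.2 arrays all lay below vehicle. The differences were -0.31 ± 0.07, -0.25 ± 0.07, -0.31 ± 0.07 and -0.28 ± 0.07 for the 4 treatments in that order, with adjusted p between 0.00161 and 0.00703. Probe set 2 differed by -0.23 with DMF100, -0.20 with MEF79.2 and -0.17 with the combination, all called, and by -0.14 with DMF179.2 (adjusted p = 0.0977). Probe sets 3, 4 and 5 were also tested in kidney, and none was called lower with any treatment. They sat near the filter limit, between the 49.7th and 55.0th percentile with vehicle.

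Abcc3 fell in kidney with DMF179.2, opposite to its direction in jejunum, and 2 arrays carried much of the difference. The 8 DMF179.2 values were 9.66, 9.51, 9.68, 9.94, 9.31, 9.24, 8.10 and 7.56, against a lowest of 9.74, a median of 9.92 and a highest of 10.45 with vehicle. Of the 8 DMF179.2 arrays, 7 lay below the lowest vehicle array. The difference was -0.84 ± 0.20 (1.80-fold lower, adjusted p = 0.00232), and without the 2 lowest arrays, left out after their values were seen, it was -0.41 and still called. With only these 2 groups in the model it was not called (adjusted p = 0.0751). DMF100, MEF79.2 and the combination differed by -0.48, -0.31 and -0.37 ± 0.20 and did not pass (adjusted p = 0.137, 0.31 and 0.159), although all DMF100 arrays lay below all vehicle arrays.

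The lumenal pumps Abcg2 and Abcb1a gave little or no called change in kidney. Abcg2 differed from vehicle by 0.01 to 0.03 with the 4 treatments, and the 95% interval with DMF179.2 was -0.04 to 0.10. Abcb1a probe set 2, which sat at the 43.2nd percentile, fell with the combination by 0.42 ± 0.12 (adjusted p = 0.00572), while probe set 1 differed by -0.08 ± 0.09 there (adjusted p = 0.551). Abcb1b differed by 0.25 ± 0.12 with DMF100 (adjusted p = 0.195), and Abcc1 probe set 1 by 0.02 to 0.07 with the 4 treatments, with no call. The kidney samples showed all 4 measured proximal tubule markers and all 4 distal nephron markers. With the combination 2 proximal tubule markers rose and 2 distal nephron markers fell, and the median difference of these lists was 0.04 and -0.17. Their part in the results was not tested.

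The responses of the 7 genes tested in both jejunum and kidney were compared directly, and Abcc3 had the largest difference. The response in jejunum minus the response in kidney was 1.44 ± 0.24 for Abcc3 with DMF100 (adjusted p = 0.00011), 2.25 ± 0.24 with DMF179.2 (adjusted p = 4.31e-11) and 1.52 ± 0.23 with the combination (adjusted p = 4.12e-06). The DMF179.2 value includes the low kidney arrays of that group described above, and no value without them is given here. The share of all 14862 probe sets called in this test was 0.599%, 16.7% and 14.1% for these treatments and 1.55% for MEF79.2. With MEF79.2 the Abcc3 difference of 0.80 ± 0.24 did not pass (adjusted p = 0.0632). For Abcc5 probe set 1, which rose in jejunum and fell in kidney, the difference was 1.11 ± 0.20 with DMF179.2 and 0.86 ± 0.20 with the combination. Abcb1a differed by 0.61 ± 0.18 and 0.59 ± 0.18 for the same pair of treatments, and Abcg2 by -0.39 ± 0.07 and -0.27 ± 0.06.

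**Figure D4:**
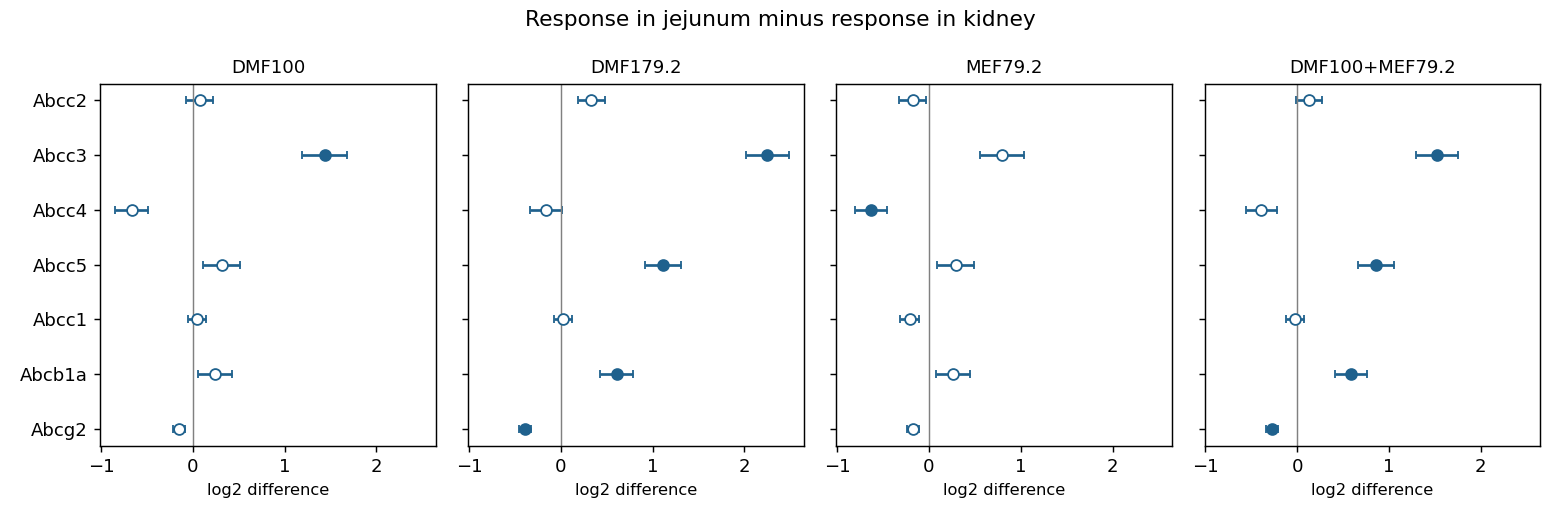
Response in jejunum minus response in kidney (log2, treatment minus vehicle in each) for the 7 genes tested in both tissues, 1 panel per treatment, first tested probe set of each gene. Points are estimates, bars are 1 standard error and filled points are calls: Abcc3 reaches 2.25 with DMF179.2, low kidney arrays included, and Abcc4 is called below 0 with MEF79.2.

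Abcc4 responded less in jejunum than in kidney with MEF79.2, with a difference of -0.63 ± 0.18 (adjusted p = 0.0447). That call was lost with each array centred on its median, at -0.61 (adjusted p = 0.0768), and without the filter on low values (adjusted p = 0.0607). Abcc2, which rose in both tissues, showed no called difference between them, with 0.33 ± 0.14 for DMF179.2 (adjusted p = 0.102) and -0.18 to 0.13 for the other treatments. Across all 7 tissues, an F test of equal responses was called for Abcc4 with all 4 treatments, for at least 1 Abcc5 probe set with each treatment except DMF100, for Abcg2 with DMF179.2 and the combination, and for Abcb1a with the combination. Of 11850 probe sets tested in all tissues, the share called was 3.0% for DMF100, 32.7% for DMF179.2, 7.97% for MEF79.2 and 14.7% for the combination. Abcc2 and Abcc3 were not tested in every tissue and so have no such test.

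In the mesenteric lymph node, Abcc3 and Abcg2 rose with DMF179.2 and with the combination, and no other member was called. These were 2 of 13 member probe sets each, against 7.36% and 11.2% of all. Abcc3 ranged from 6.90 over 7.11 to 7.64 with DMF179.2 and from 6.78 over 7.08 to 7.57 with the combination, against 6.04, 6.72 and 6.89 with vehicle. The DMF179.2 arrays all lay above vehicle. The differences were 0.50 ± 0.11 (adjusted p = 0.00574) and 0.45 ± 0.12 (adjusted p = 0.0158). Abcg2 ranged from 9.36 over 9.44 to 9.58 with DMF179.2 and from 9.36 over 9.46 to 9.73 with the combination, against 8.81, 9.07 and 9.55 with vehicle, and the groups overlapped. It rose by 0.32 ± 0.09 and 0.38 ± 0.09 (adjusted p = 0.0182 and 0.0109).

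A bulk tissue value cannot tell fewer cells of a type from less RNA per cell. In the same nodes 2 of 5 B cell markers fell with DMF179.2, and their mean ranged from 10.31 over 11.06 to 11.26 with DMF179.2, against 11.05, 11.29 and 11.38 with vehicle. With this mean as a covariate, chosen after seeing the data, the DMF179.2 differences were 0.36 for Abcc3 (adjusted p = 0.109) and 0.15 for Abcg2 (adjusted p = 0.327), and neither passed. Of 6 macrophage and neutrophil markers 1 rose with DMF179.2 and 1 with the combination, and their mean was 8.93 ± 0.22 and 8.79 ± 0.10 in these groups, against 8.54 ± 0.19 with vehicle (SD). The mean of 5 endothelium markers was 8.89 ± 0.13 with DMF179.2 and 8.86 ± 0.09 with the combination, against 8.67 ± 0.14 with vehicle (SD). The part of these markers was not tested. The call of Abcg2 with DMF179.2 was also lost without 1 DMF179.2 array, number 23, which had the lowest correlation with the other arrays. With DMF100 and MEF79.2, against 1.80% and 4.63% of all, no member was called, and 2 and 4 members had an unadjusted p below 0.05.

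In spleen, members were called with DMF179.2 only, 5 higher and 1 lower of 13, against 27.8% of all tested probe sets. Abcg2 is highly expressed in haematopoietic stem cells and erythroid precursors. It ranged from 10.21 over 10.52 to 11.18 with DMF179.2, against 9.44, 9.90 and 10.70 with vehicle, and the groups overlapped. It rose by 0.68 ± 0.22 (1.60-fold, adjusted p = 0.0198). Abcc4 rose by 0.47 ± 0.16 (adjusted p = 0.0234). Its lowest, median and highest values were 8.03, 8.33 and 8.77 with DMF179.2, against 7.68, 7.85 and 8.10 with vehicle, and the groups overlapped slightly. Abcc5 probe set 1 rose by 0.34 ± 0.11 (adjusted p = 0.0175), and its probe sets 2 and 3 were called too. Abcc1 probe set 2 fell by 0.95 ± 0.30 (adjusted p = 0.0167), but probe set 1, with the higher signal, differed by 0.04 ± 0.07 (adjusted p = 0.702).

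**Figure D5:**
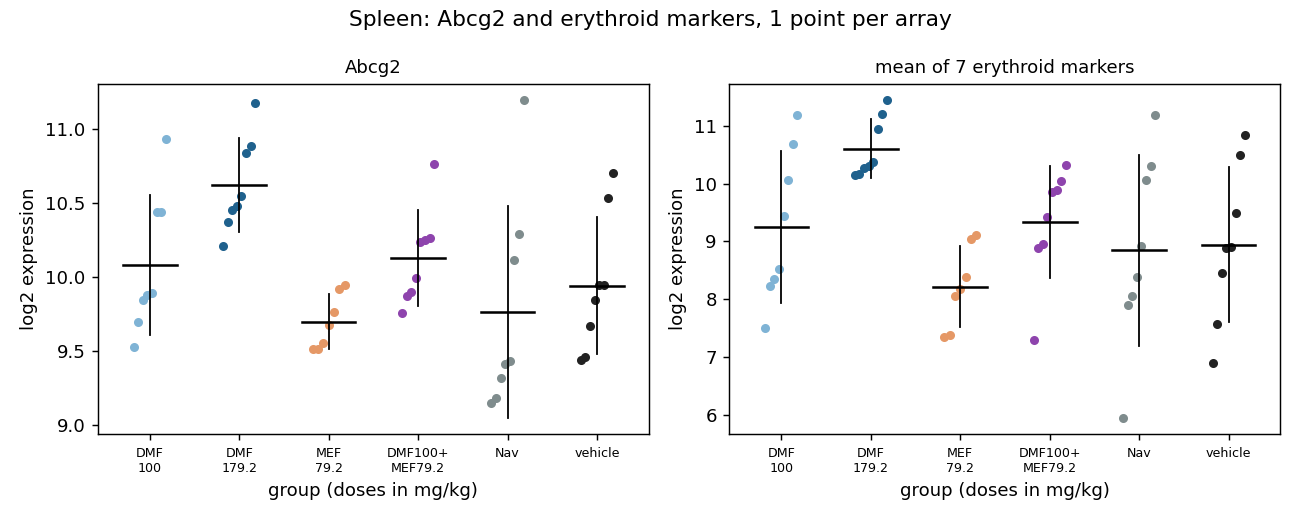
Log2 expression of Abcg2 (left) and the mean of 7 erythroid markers (right) in spleen, 1 point per array, for the 4 treatments, Nav and vehicle (7 or 8 arrays a group). Horizontal bars are means and vertical lines are 1 SD: DMF179.2 has the highest mean in both panels, 10.62 for Abcg2 and 10.61 for the markers.

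Erythroid markers also differed between the spleen groups. All 7 measured markers were detected, and 5 of them rose with DMF179.2. Their mean ranged from 10.15 over 10.33 to 11.45 with DMF179.2, against 6.89, 8.89 and 10.84 with vehicle. With that mean as a covariate, chosen after seeing the data, none of the spleen calls passed: Abcg2 differed by 0.11 (adjusted p = 0.525), Abcc4 by 0.38 (adjusted p = 0.115) and Abcc5 probe set 1 by 0.23 (adjusted p = 0.141). Abcc5 probe sets 2 and 3 differed by 0.22 and 0.16 (adjusted p = 0.135 and 0.0821), and Abcc1 probe set 2 by -0.93, close to its value without the covariate, with an adjusted p of 0.0518. RNA quality was measured as the signal of the 3 prime minus that of the 5 prime probe sets, averaged over actin and Gapdh. This log2 difference ranged from 1.19 over 1.41 to 1.505 with DMF179.2, against 1.10, 1.22 and 1.28 with vehicle. The part of the erythroid markers and of this RNA measure in the spleen results was not tested. With DMF100, MEF79.2 and the combination limma called no member in spleen, against 0.924%, 0% and 0.0242% of all, and 0, 1 and 1 member probe sets had an unadjusted p below 0.05.

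Whole blood gave 1 call, Abcc3 with DMF179.2, against 0.927% of all probe sets. Abcc3 ranged from 4.72 over 5.12 to 5.86 with DMF179.2, against 4.32, 4.65 and 5.004 with vehicle, and the groups overlapped. The difference was 0.53 ± 0.13 (1.44-fold, adjusted p = 0.0393). It was not called without the filter on low values or with only these 2 groups in the model (adjusted p up to 0.134). The other 3 treatments gave no member call by limma in blood, against 0.201% of all for DMF100 and 0% for MEF79.2 and the combination, and 1, 0 and 0 members had an unadjusted p below 0.05.

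Brain and inguinal node gave no member call by limma with any of the 4 treatments. Of the 44 member tests in brain 5 had an unadjusted p below 0.05, and of the 52 in inguinal node 9 did. With array weights in the model, 2 member tests were called in brain and 1 in inguinal node. The share of all probe sets called with array weights is not given here, so these counts have no baseline. Without array weights, the shares of all probe sets called in brain for the 4 treatments, in the order of the opening, were 0.308%, 0.611%, 0.350% and 0.308%. In inguinal node they were 1.41%, 0.303%, 0.0121% and 0.0364%. In brain, Abcb1a ranged from 9.21 over 9.59 to 9.77 with DMF179.2, against 9.07, 9.30 and 9.63 with vehicle, a difference of 0.22 ± 0.07 that did not pass (adjusted p = 0.142). Abcg2, its partner at the blood-brain barrier, differed by 0.11 ± 0.06 (adjusted p = 0.358) and Abcc5 by 0.01 ± 0.05 (adjusted p = 0.959). In inguinal node every combination array of Abcc3 lay above every vehicle array, but the difference of 0.54 ± 0.13 did not pass (adjusted p = 0.132).

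The DMF doses differed in jejunum. DMF179.2 minus DMF100 was called for 5 of 11 member probe sets there, against 12.1% of all. Abcc3 was higher by 0.45 ± 0.13 (adjusted p = 0.0248), Abcc4 by 0.52 ± 0.15 (adjusted p = 0.0208) and Abcc5 probe set 1 by 0.86 ± 0.19 (adjusted p = 0.00435) at the higher dose, while Abcg2 was lower, with a difference of -0.22 ± 0.06 (adjusted p = 0.0223). The Abcc3, Abcc5 and Abcg2 arrays of the higher dose did not overlap those of the lower dose. With the ileal markers as a covariate Abcc3 at 0.35 and Abcg2 at -0.18 no longer passed (adjusted p = 0.0815 and 0.0678), and Abcg2 was also not called with each array centred on its median. Abcc2 differed by 0.35 ± 0.14 between the doses (adjusted p = 0.0842, 95% interval 0.07 to 0.62). In kidney limma called no member between the doses, against 0.781% of all and with 1 unadjusted p below 0.05, with Abcc2 at 0.09 (95% interval -0.03 to 0.22) and Abcc4 at 0.02 (95% interval -0.19 to 0.22). In spleen Abcc5 probe sets 1 and 2 were higher at the higher dose, by 0.46 and 0.43, against 2.34% of all, and with the erythroid markers as a covariate neither passed, at 0.37 each (adjusted p = 0.176 and 0.161). In mesenteric node, inguinal node, brain and blood no member was called by limma, against 0.270%, 0.00606%, 0% and 0% of all, and 3, 3, 5 and 5 members had an unadjusted p below 0.05.

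DMF is the dimethyl ester of fumaric acid and MEF its monoethyl ester, here given as salts, and the doses of the single agents differ, so their values stand side by side without a test. In kidney the difference from vehicle was 0.42 for Abcc2 with MEF79.2 and 0.42 with DMF100, and 0.47 for Abcc4 with MEF79.2 and 0.69 with DMF100. In jejunum it was 0.48 for Abcc3 with MEF79.2 and 0.96 with DMF100. At equal total mass, DMF179.2 minus the combination gave 2 calls over all tissues, both of Abcc5. Probe set 5 was lower in kidney, with a difference of -0.44 ± 0.12 (adjusted p = 0.0178, against 10.8% of all), while the probe sets of higher signal were not called there. It sat at the 50.9th percentile with vehicle, and its call was lost with only these groups in the model (adjusted p = 0.0675). Probe set 3 was higher by 0.20 ± 0.06 in spleen (adjusted p = 0.047, against 4.68% of all), and that call was lost in 4 of 8 alternatives. In jejunum, where 0% of all probe sets was called, Abcc3 differed by 0.25 between these groups, with a 95% interval of 0.00 to 0.50. Members had an unadjusted p below 0.05 in 1 test in jejunum and in 1, 1, 0 and 2 in mesenteric node, inguinal node, brain and blood, against 0.00600%, 0%, 0.0119% and 0% of all called.

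Adding MEF salts to DMF at 100 mg/kg gave 2 calls, both for probe set 5 of Abcc5. It was higher by 0.40 ± 0.11 in mesenteric node (adjusted p = 0.0236, against 7.68% of all), and by 0.34 ± 0.12 in kidney, against 13.9% of all. The kidney call lay at the threshold and was kept in 1 of 8 alternatives. In jejunum, inguinal node, spleen, brain and blood limma called no member, against 0.244%, 0.103%, 0%, 0.0593% and 0% of all, and 3, 4, 0, 0 and 2 members had an unadjusted p below 0.05. For Abcc3 in jejunum the combination minus DMF100 was 0.20 ± 0.13 (adjusted p = 0.597, 95% interval -0.06 to 0.46).

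The Nav group gave 11 member calls against vehicle. Of these, 7 were in mesenteric node, where 48.2% of all probe sets were called: Abcb1a, Abcg2 and Abcc5 probe sets 3, 4 and 5 were higher, and Abcc1 and Abcc4 were lower, with differences of -0.15 and -0.44. The mean of the hybridisation controls there ran from 11.53 to 11.77 with Nav, wholly above vehicle, at 11.35 to 11.51. This signal therefore cannot be told apart from Nav in mesenteric node. For kidney the control mean was 11.79 ± 0.13 with Nav, against 11.55 ± 0.07 with vehicle (SD). In jejunum (10.6% of all) Abcc5 was higher by 0.61 ± 0.18, and Abcg2 was lower with a difference of -0.30 ± 0.06. In kidney (47.9% of all) Abcc5 probe set 5 was higher by 0.33 and Abcb1a probe set 2 was lower with a difference of -0.28. In inguinal node, spleen, brain and blood limma called no member, against 0.0242%, 15.4%, 3.66% and 0.00610% of all, and 1, 6, 1 and 0 members had an unadjusted p below 0.05. Abcc3 and Abcc2, which rose with DMF in jejunum, differed between Nav and vehicle there by -0.06 ± 0.12 and 0.19 ± 0.13, with adjusted p of 0.784 and 0.346.

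Genes of the same detoxification pathway are given from lists, each gene by its probe set of highest mean. In jejunum, markers of NRF2 activity rose in 4 of 8 cases with DMF100, 7 with DMF179.2, 2 with MEF79.2 and 5 with the combination, and 1 fell with DMF179.2. Nqo1, a quinone reductase, rose by 1.94 ± 0.11 with DMF179.2. In kidney 7, 7, 6 and 7 of 9 rose for the same 4 treatments and none fell. Conjugating enzymes, which make the substrates of the Abcc pumps, rose for 12, 20, 2 and 16 of 24 genes in jejunum and for 12, 15, 9 and 13 of 21 in kidney, and none fell. Beside the counts of both lists, the share of all tested probe sets called in jejunum was 0.906%, 28.5%, 0.0596% and 3.59% for these treatments. In kidney it was 7.31%, 16.1%, 13.4% and 28.8%. The glutathione transferase Gstm1 rose by 3.17 ± 0.24 in jejunum and 0.60 ± 0.03 in kidney with DMF179.2. The median difference of the conjugating enzymes with DMF179.2 was 0.49 in jejunum and 0.32 in kidney, beside 0.01 over all probe sets in each.

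Other ABCB, ABCC and ABCG transporters moved in both directions. With DMF179.2, 3 of 9 rose and 1 fell in jejunum, where 28.5% of all probe sets were called, and 2 of 7 rose in kidney, where 16.1% were. The counts of the next lists stand beside the same shares. The sterol exporter subunit Abcg8 rose by 0.88 ± 0.17 in jejunum, and Abcb6, a porphyrin transporter, rose by 0.42 ± 0.09 in jejunum and 0.16 ± 0.05 in kidney. Uptake and exchange carriers moved both ways, with 2 of 11 higher and 2 lower in jejunum, and 1 of 16 higher and 4 lower in kidney. In kidney the organic anion carrier Slc22a7 fell by 1.58 ± 0.34, and the carnitine carrier Slc22a5 fell by 0.30 ± 0.06 with DMF179.2. Of the regulators of efflux transporters, 4 of 10 rose with DMF179.2 in jejunum and none of 8 was called in kidney. The 4 were the xenobiotic receptors Nr1i3 (1.32 ± 0.22), Nr1i2 (0.48 ± 0.12) and Ahr (0.40 ± 0.11) and the corepressor Nr0b2 (1.55 ± 0.25).

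The genes whose values followed a called member most closely over all arrays of a tissue are given as a description, since treatment groups are mixed in it and all points share the groups. Over 43 jejunum arrays Abcc3 went with Nqo1 (Pearson r = 0.955), the aldo-keto reductase Akr1b8 (0.946) and the carboxylesterase Ces1f (0.924), and Abcc2 with the carbonyl reductase Cbr1 (0.908). The other called members there went with other genes: Abcc5 with Zfp943 (0.917), Abcb1a with Rundc3b (0.869), Abcg2 with Arpc5 (0.854) and Abcc4 with Selenoo (0.781). Over 46 kidney arrays Abcc2 went with the glucuronosyltransferase Ugt2b34 (0.952), and Abcc4 with the glutathione transferase Gsta4 (0.942). Kidney Abcc3 went with Gdpd3 (0.940), kidney Abcc5 with Nceh1 (0.675) and kidney Abcb1a probe set 2 with Itgb3bp (0.653).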

How the data were processed

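The deposited table holds log2 expression values per probe set, which the authors made from Affymetrix array scans; per the submitters' processing notes RMA, GCRMA, R 2.11.1 and limma 3.4.5 were used, without saying which step each did. The tissues were normalized apart, since their values do not share a floor, so they were tested within a tissue or as differences of responses. Of 45141 probe sets, 28898 had 1 symbol in the platform annotation, 551 had several and 15692 were not named, and 28689 of the named were matched to RefSeq.

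Here each tissue was fitted with limma 3.58.1 in R 4.3.3 (6 group means, all groups sharing the variance), with p-values adjusted by Benjamini-Hochberg over all tested probe sets and called below 0.05. The F test of equal responses over tissues was fitted over the arrays of all tissues. The jejunum minus kidney difference was fitted over the jejunum and kidney arrays only. Intervals are at 95%. The number of arrays limits the precision. The members and gene lists were chosen with earlier results of these data known. Named genes were every member, up to 4 called genes of each list per tissue and treatment by smallest adjusted p, and the 3 genes of highest Pearson r with each member called in jejunum or kidney; a selection of the last 2 kinds is printed. Alternatives changed the filter, centring, probe sets per gene, array weights, samples, covariates, prior variance and arrays left out.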

Additional observations from a re-analysis of the deposited data

Results flagged for a closer look

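Members were compared between jejunum and kidney by the difference of their responses, tested by limma over both tissues, and 15 differences passed. Of all 14862 probe sets in this test, the share called was 0.599% for DMF100, 16.7% for DMF179.2, 1.55% for MEF79.2 and 14.1% for the combination. With DMF179.2 the jejunum minus kidney value was 2.2507 for Abcc3, 1.1137 for Abcc5 probe set 1, 0.8206 for Abcc5 probe set 2, 0.4481 for Abcc5 probe set 5, 0.6066 for Abcb1a probe set 1, 0.6271 for Abcb1a probe set 2 and -0.3875 for Abcg2. With the combination it was 1.5232 for Abcc3, 0.8591 for Abcc5 probe set 1, 0.6003 for Abcc5 probe set 2, 0.586 for Abcb1a probe set 1, 0.91 for Abcb1a probe set 2 and -0.2695 for Abcg2. Abcc3 with DMF100 gave 1.4362 and Abcc4 with MEF79.2 gave -0.6327. The Abcc3 value with DMF179.2 includes the low kidney arrays of that group. Without the filter on low values, Abcc4 with MEF79.2 and Abcc5 probe set 5 with DMF179.2 did not pass (adjusted p = 0.0607 and 0.0626). With each array centred, Abcc4 with MEF79.2 did not pass either (adjusted p = 0.0768).

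Single arrays lay apart from their group in 3 of 48 groups examined, and chance alone gives about 1 in 20. Abcc2 in kidney was 11.1756 on DMF179.2 array 24, with the nearest array at 10.9218. Abcc3 in kidney was 10.4511 on vehicle array 3, with the nearest at 9.999. Abcc3 in mesenteric node was 6.0406 on vehicle array 7, with the nearest at 6.6344.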

How the results depend on the processing

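No member call changed direction under any alternative run. The 17 kidney calls stayed within 1.5 times under every alternative, and the other counts moved as follows. The jejunum count of 12 was 6 with the hybridisation control covariate. The mesenteric node count of 4 was 9 with array weights, and 2 with the B cell covariate or the filter at the 70th percentile. With array weights the inguinal node count of 0 was 1 and the brain count of 0 was 2. The spleen count of 6 was 3 with 1 probe set per gene and 0 with the erythroid covariate. The blood count of 1 was 0 without a filter, with the groups as a pair alone and at the 70th percentile. The Nav count of 11 was 5 at the 70th percentile, 6 with 1 probe set per gene, 21 with array weights and 5 with the hybridisation covariate. DMF179.2 minus DMF100, with 7 calls, had 12 with array weights. The combination minus DMF100, with 2 calls, had 1 without a filter, at the 70th percentile, with arrays centred and without the array of lowest correlation, 0 with 1 probe set per gene and 4 with array weights. DMF179.2 minus the combination, with 2 calls, had 1 without a filter and with a trended variance, 0 at the 70th percentile and with 1 probe set per gene, and 4 with array weights or the hybridisation covariate. The F test count of 13 was 22 without a filter. Leaving out blood arrays of MEF79.2 in turn gave 1 to 1 calls in blood, and those of Nav gave 11 to 11. The cause of these changes was not tested, except that stricter filters and 1 probe set per gene test fewer probe sets. Shares of all probe sets called under the alternatives are not given here.

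With the sample number as a replicate block, the F test gave 14 calls, against 13 without, and jejunum minus kidney gave 18, against 15. The calls gained were Abcc3 with MEF79.2 at 0.79 (adjusted p = 0.0314), Abcc4 with DMF100 at -0.66 (adjusted p = 0.0249) and Abcc5 probe set 3 with DMF179.2 at 0.27 (adjusted p = 0.0421). Deviations of same-numbered samples had a median correlation of 0.1758 over 866 pairs of samples of 1 group from different tissues, 590 of them above 0.1, against -0.0243 over 5914 pairs with other numbers. No label says what a number marks, although a number stood in the same treatment group in every tissue. The main tests over tissues took the samples as independent, which would not hold if a number marks a mouse.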
